A study of Mus musculus with 18 samples.

Results

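Ribosomal protein genes encode the protein subunits of the cytoplasmic ribosome. They were taken here by symbol from the protein-coding mouse genes in the GRCm38.p6 gene table of RefSeq. The symbol had to be Rpl or Rps followed by a number, with an optional letter (a, l, x or y) and an optional further digit. This rule gave 80 genes of the 21774 protein-coding genes placed on assembled chromosomes, 49 named for the large and 31 for the small subunit. The genes are spread over 19 chromosomes. Among them are 7 paralogues, marked by an l after the number: Rpl3l, Rpl7l1, Rpl10l, Rpl22l1, Rpl32l, Rpl39l and Rps27l. The comparison set was 318 annotated pseudogenes whose symbol names a ribosomal protein followed by -ps.

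The study measured chromatin accessibility by ATAC-seq, in which a transposase cuts and tags open DNA, in a mouse embryonic stem cell line labelled dTKO with the genotype Suv39h1fl/fl, Suv39h2-/- and Setdb1fl/fl. Suv39h1, Suv39h2 and Setdb1 encode H3K9 methyltransferases. The series held 18 libraries, 3 biological repeats at each of 0, 3, 6, 12, 24 and 48 h after auxin (100 µg/ml) and dTAG13 (0.5 µM), small molecules that trigger the breakdown of tagged proteins. Cells grew in LIF and serum on gelatin. Every library carries the same genotype and treatment label, the 0 h libraries included. Which protein was tagged, whether the floxed alleles had been recombined and how many clones the line came from were not given in the sources used here. The values were the positions of 166066 peaks merged over the libraries, 165744 of them on assembled chromosomes, with a median width of 578 bp. The merged list holds no value for a single library, so there is no replicate error, the depth is unknown, and the times could not be compared. Intervals below are 95% Wilson intervals over genes and cover counting error only, because genes are not replicates. A wide merged peak can join peaks of different libraries or times. All 6 stem cell marker genes examined (Pou5f1, Nanog, Sox2, Klf2, Zfp42 and Esrrb) had a peak at an end, against 2 of 5 fibroblast markers (Col1a1 and Thy1) and 0 of 3 blood cell markers.

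Ribosomal protein genes are short, split by introns and transcribed at a high rate in dividing cells, and their promoters lie in regions rich in CpG. Many of their transcripts begin with a C followed by a run of pyrimidines, the terminal oligopyrimidine motif, through which growth signals control the translation of the messages. Their introns often house small nucleolar RNAs, which guide the chemical modification of ribosomal RNA, and their messages have been copied back into the genome many times as processed pseudogenes that lack the parent promoter.

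Nearly every ribosomal protein gene had an accessible start, and most also had a second accessible stretch past the other end. With a window of 500 bp on either side of each annotated gene end, 48 of the 80 genes (60%, 49.0 to 70.0) had a peak at both ends, against 18.2% of all protein-coding genes. At either end there was a peak in 77 of 80 (96.3%), against 71.4%. Both ends had a peak in 20.1% of the 7272 protein-coding genes that are 1000 to 12000 bp long, a band that holds 78 of the 80 genes. The share was 29 of 49 for the large subunit and 19 of 31 for the small. In symbol order the first 5 genes with both ends marked were Rpl10, Rpl10a, Rpl10l, Rpl11 and Rpl12. In Rpl10l, a 1023 bp gene and a paralogue of Rpl10, a single peak of 1187 bp covered the 5′ end and reached into the window of the 3′ end, stopping inside the gene. In the other 47 the ends had separate peaks.

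Other genes of protein synthesis came between. Both ends had a peak in 29 of 78 mitochondrial ribosomal protein genes (37.2%, 27.3 to 48.3), which serve the ribosome inside mitochondria. The count was 27 of 71 (38.0%, 27.6 to 49.7) for genes whose symbol begins with Eif or Eef and a number, called translation factors here. That rule goes by symbol alone, so not all of them need be initiation or elongation factors. For ribosome assembly genes the count was 13 of 24 (54.2%, 35.1 to 72.1). A peak at either end was present in 77 of 78, 68 of 71 and 24 of 24 genes of these lists, all within the interval of the ribosomal protein genes or above it. Among ribosomal proteins that the symbol rule leaves out, Rplp0 and Rplp2 of the stalk and Rpsa had a peak at both ends, the widest of each measuring 2144, 1208 and 2278 bp.

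The annotated direction of transcription came from the RefSeq table of start sites, which listed 61 of the 80 genes and 17492 protein-coding genes in all. At the 5′ end 58 of the 61 had a peak (95.1%, 86.5 to 98.3), against 67.1% of protein-coding genes with a listed direction. In 21 of the 58 the widest 5′ peak covered, or came within 100 bp of, an end of another annotated gene. That was so in 3482 of 11731 protein-coding genes with a 5′ peak and 37 of 67 mitochondrial ribosomal protein genes. A listed start site lay inside a peak in 59 of 61 (96.7%, 88.8 to 99.1), against 67.9%, the exceptions being the paralogues Rpl32l and Rpl3l. The 5′ peaks were not wide. Their median was 1100 bp, from 493 bp at Rps2 to 2410 bp at Rpl4. It was 1313 bp over all protein-coding genes and 1131 bp over mitochondrial ribosomal protein genes. At Rps2, Rpl18 and Rpl19 the nearest listed start lay 1942, 2604 and 4707 bp inside the outer end. Other peaks, of 965, 753 and 1067 bp, covered those starts. Peaks over a listed start had a median of 1099 bp, against 1341 bp over all protein-coding genes with direction.

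The larger gap to other genes was on the 3′ side. A peak at the 3′ end, separate from any peak at the 5′ end, was present at 38 of the 61 genes (62.3%, 49.7 to 73.4), against 20.0% of protein-coding genes with direction. Among genes 1000 to 12000 bp long the share was 22.8%, among mitochondrial ribosomal protein genes 23 of 69 (33.3%, 23.4 to 45.1), among translation factors 22 of 55 (40%) and among ribosome assembly genes 12 of 20 (60%, 38.7 to 78.1). The interval for the assembly genes covers the value of the ribosomal protein genes. The plot of shares by gene list sets these values side by side.

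**Figure D1:**
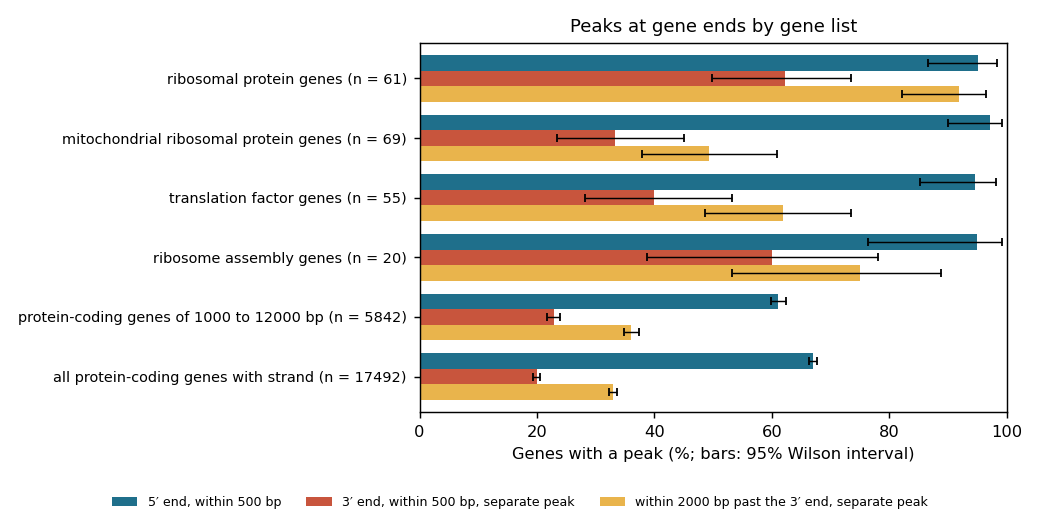
Share of genes (%, horizontal axis) with a peak at the 5′ end, a separate peak at the 3′ end, or a separate peak within 2000 bp past the 3′ end, in 6 gene sets, with 95% Wilson intervals over genes. The 5′ bars of the 4 translation sets are all above 94%, whereas the bar for 2000 bp past the 3′ end is 91.8% for ribosomal protein genes and 33.0% for all protein-coding genes with direction.

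The 3′ peaks were also wide. Their median width was 1731 bp (529 to 3701), against 791 bp for all protein-coding genes and 789 bp for mitochondrial ribosomal protein genes. Translation factors had a median of 1331 bp and ribosome assembly genes 1266 bp. A 3′ peak over 2000 bp wide occurred at 17 of the 61 genes (27.9%), against 1.10% of all genes with direction, 6 of 55 translation factors (10.9%) and 3 of 20 ribosome assembly genes (15.0%). Where both ends had separate peaks, the 3′ peak was the wider one in 29 of 37 ribosomal protein genes (78.4%), against 794 of 2870 protein-coding genes (27.7%) and 6 of 22 mitochondrial ribosomal protein genes (27.3%). It was the wider one in 9 of 22 translation factors (40.9%) and 5 of 11 ribosome assembly genes (45.5%).

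**Figure D2:**
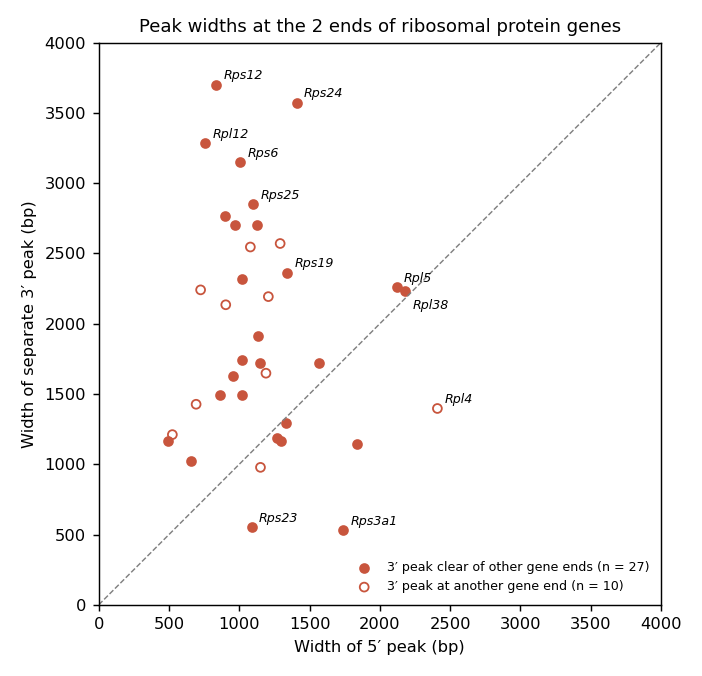
Width of the separate 3′ peak (bp, vertical) against width of the 5′ peak (bp, horizontal) for the 37 ribosomal protein genes with both; each point is a gene, filled where the 3′ peak is clear of other gene ends by 100 bp, and the dashed line marks equal widths. Of the 37 points 29 lie above the line, with Rps12 at 837 and 3701 bp farthest from it.

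Rps12, a small subunit protein gene, had the widest end peak of all 80 genes. Its 5′ peak measured 837 bp and its 3′ peak 3701 bp, running from 500 to 4200 bp past the annotated end. Rps24, one of the genes mutated in Diamond-Blackfan anaemia, an inherited failure of red cell production, had a 5′ peak of 1408 bp and a 3′ peak of 3574 bp, also starting 500 bp past the end. Rpl12, of the base of the ribosomal stalk, had 756 bp at the start and 3284 bp past the end. Rps6, whose protein is phosphorylated by the S6 kinases downstream of mTOR, had 1005 bp at the start and 3149 bp at the end, from 150 bp inside the gene to 2998 bp beyond it. Rps25 had 1099 and 2852 bp. All of these 3′ peaks were clear of any other annotated gene end by at least 100 bp. Those of Rps12 and Rps24 begin at the last position that the 500 bp window accepts.

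Of the 6 fixed examples that follow, which have clinical or regulatory roles, the 3′ peak was the wider in Rps19, Rpl5 and Rpl38 and the narrower in Rpl11, Rpl7a and Rpl10. Rps19, the gene most often mutated in Diamond-Blackfan anaemia, had a 1342 bp peak at its start and a 2362 bp peak from 123 to 2484 bp past its end. Rpl5, which with Rpl11 binds MDM2 and so restrains the degradation of p53, had peaks of 2119 and 2258 bp. Rpl11 had 1294 and 1166 bp, the 3′ peak being the narrower. Rpl38, known for its part in translating Hox messages, had 2182 and 2231 bp, so both its ends were wide. Rpl7a had 1268 and 1188 bp, and Rpl10, on the X chromosome, 1151 and 978 bp. The ratio of 3′ to 5′ width was 1.07 in Rpl5, 1.02 in Rpl38, 0.94 in Rpl7a, 0.90 in Rpl11 and 0.85 in Rpl10, against 1.76 in Rps19 and 4.42 in Rps12.

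Besides the 23 genes without a separate 3′ peak, 8 of the 37 with both had the narrower peak at the 3′ end. Rpl22, a large subunit gene that is not essential in mice, had a 3′ peak of 1143 bp that ended 262 bp before the annotated end, inside the gene, and no peak in the 5 kb beyond. The narrowest 3′ peaks belonged to Rps3a1 (529 bp against 1740 bp at the start) and Rps23 (550 bp against 1089 bp). Beyond the 500 bp window, Rps3a1 had another peak from 814 to 3161 bp past its end. That of Rps23 ran from 2013 to 2709 bp.

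Some 3′ peaks lie where a neighbouring gene begins or ends, and fewer of them can be assigned to the ribosomal protein gene. Of the 38, 11 covered an end of another annotated gene or came within 100 bp of one. The remaining 27 (44.3% of 61, 32.5 to 56.7) compare with 15.6% of all genes with direction and 8 of 20 ribosome assembly genes (40%). These 27 began at a median of 140 bp past the annotated end and reached to a median of 1887 bp past it, and 19 of the 27 lay wholly beyond the gene. Over all genes the corresponding peaks ran from a median position of -227 bp, inside the gene, to 462 bp past its end.

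The window of 500 bp fell within the range in which these peaks begin, so the count of 38 depends on it. Just inside were Rps12 and Rps24 (500 bp past the end), Rpl36a (494 bp) and Rpl12 (486 bp). Just outside were Rps15 (508 bp), Rpl14 (513 bp), Rpl27 (560 bp) and Rpl27a (562 bp). Of the 23 genes without a separate 3′ peak, 19 had their first peak 501 to 2000 bp past the end. A second measure, chosen after these positions were seen, counted any peak within 2000 bp past the 3′ end that did not also overlap the 5′ window. It was met by 56 of the 61 genes (91.8%, 82.2 to 96.4), against 33.0% of all genes with direction, 36.1% of genes 1000 to 12000 bp long and 34 of 69 mitochondrial ribosomal protein genes (49.3%, 37.8 to 60.8). Translation factors met it in 34 of 55 cases (61.8%, 48.6 to 73.5) and ribosome assembly genes in 15 of 20 (75%, 53.1 to 88.8), an interval that overlaps that of the ribosomal protein genes. The genes without such a peak were Rpl10l, Rpl22, Rpl32l, Rpl37, whose next peak began 2036 bp past its end, and Rps27, whose next peak began at 2119 bp.

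The share was as high in genes without close neighbours. Among genes with no other annotated gene end within 5 kb downstream, 27 of 29 ribosomal protein genes (93.1%, 78.0 to 98.1) met this measure, against 2927 of 11430 protein-coding genes (25.6%). Ribosome assembly genes met it in 13 of 14 cases (92.9%, 68.5 to 98.7), and translation factors in 16 of 34 (47.1%, 31.5 to 63.3). The 2 exceptions among ribosomal protein genes were the paralogues Rpl10l and Rpl32l. In the same 29 genes a median of 1904 bp of the 5 kb downstream lay in peaks, against 0 bp over all protein-coding genes of that kind, 1608 bp over 14 ribosome assembly genes, 507 bp over 31 mitochondrial ribosomal protein genes and 351 bp over 34 translation factors. Over the 5 kb upstream of the start, the medians were 810 bp for ribosomal protein genes and 418 bp for all protein-coding genes of that kind.

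The profile of peaks around the gene ends shows where this accessible stretch lies. At the annotated 5′ end 57 of 61 ribosomal protein genes (93.4%) were covered by a peak, against 91.3% of mitochondrial ribosomal protein genes and 61.3% of all genes with direction. Coverage at the annotated 3′ end itself was 26.2%. It was 59.0% at 500 bp beyond and 78.7% from 900 to 1100 bp beyond, then 54.1% at 2000 bp, 29.5% at 3000 bp and 9.84% at 4000 bp. Over all genes with direction coverage was 12.4% at 1000 bp past the end and 9.19% at 4000 bp. The mitochondrial ribosomal protein genes stood at 18.8% at 1000 bp. Inside the genes, 1000 bp before the 3′ end, the ribosomal protein genes were at 11.5% and all genes at 9.81%.

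**Figure D3:**
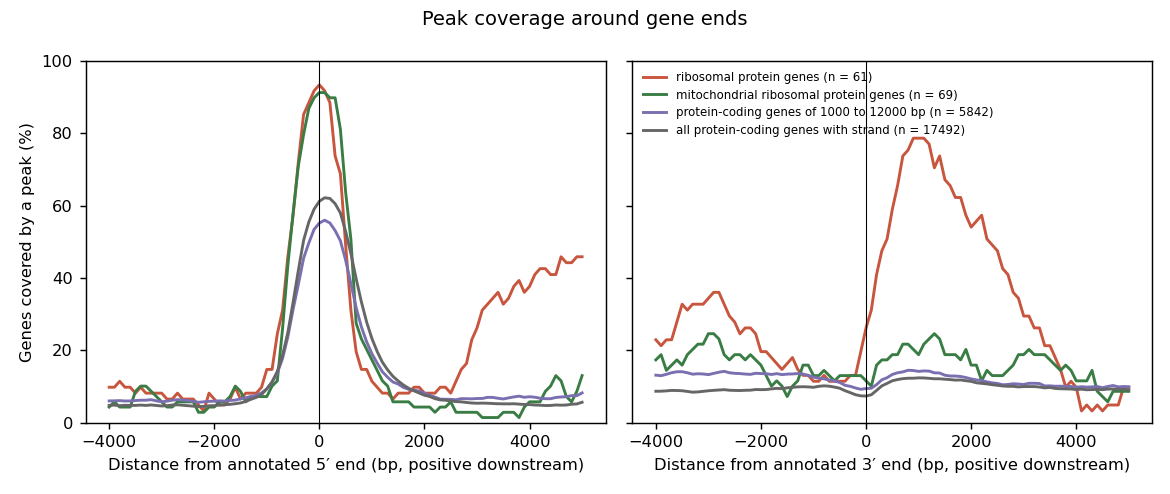
Percentage of genes covered by a merged peak at each distance (bp) from the annotated 5′ end (left) and 3′ end (right), in steps of 100 bp, for 4 gene sets; positive distances are downstream. Ribosomal protein genes and mitochondrial ribosomal protein genes have similar curves at the 5′ end, and past the 3′ end the ribosomal protein genes rise to 78.7% where all genes with direction stay near 12%.

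**Figure D4:**
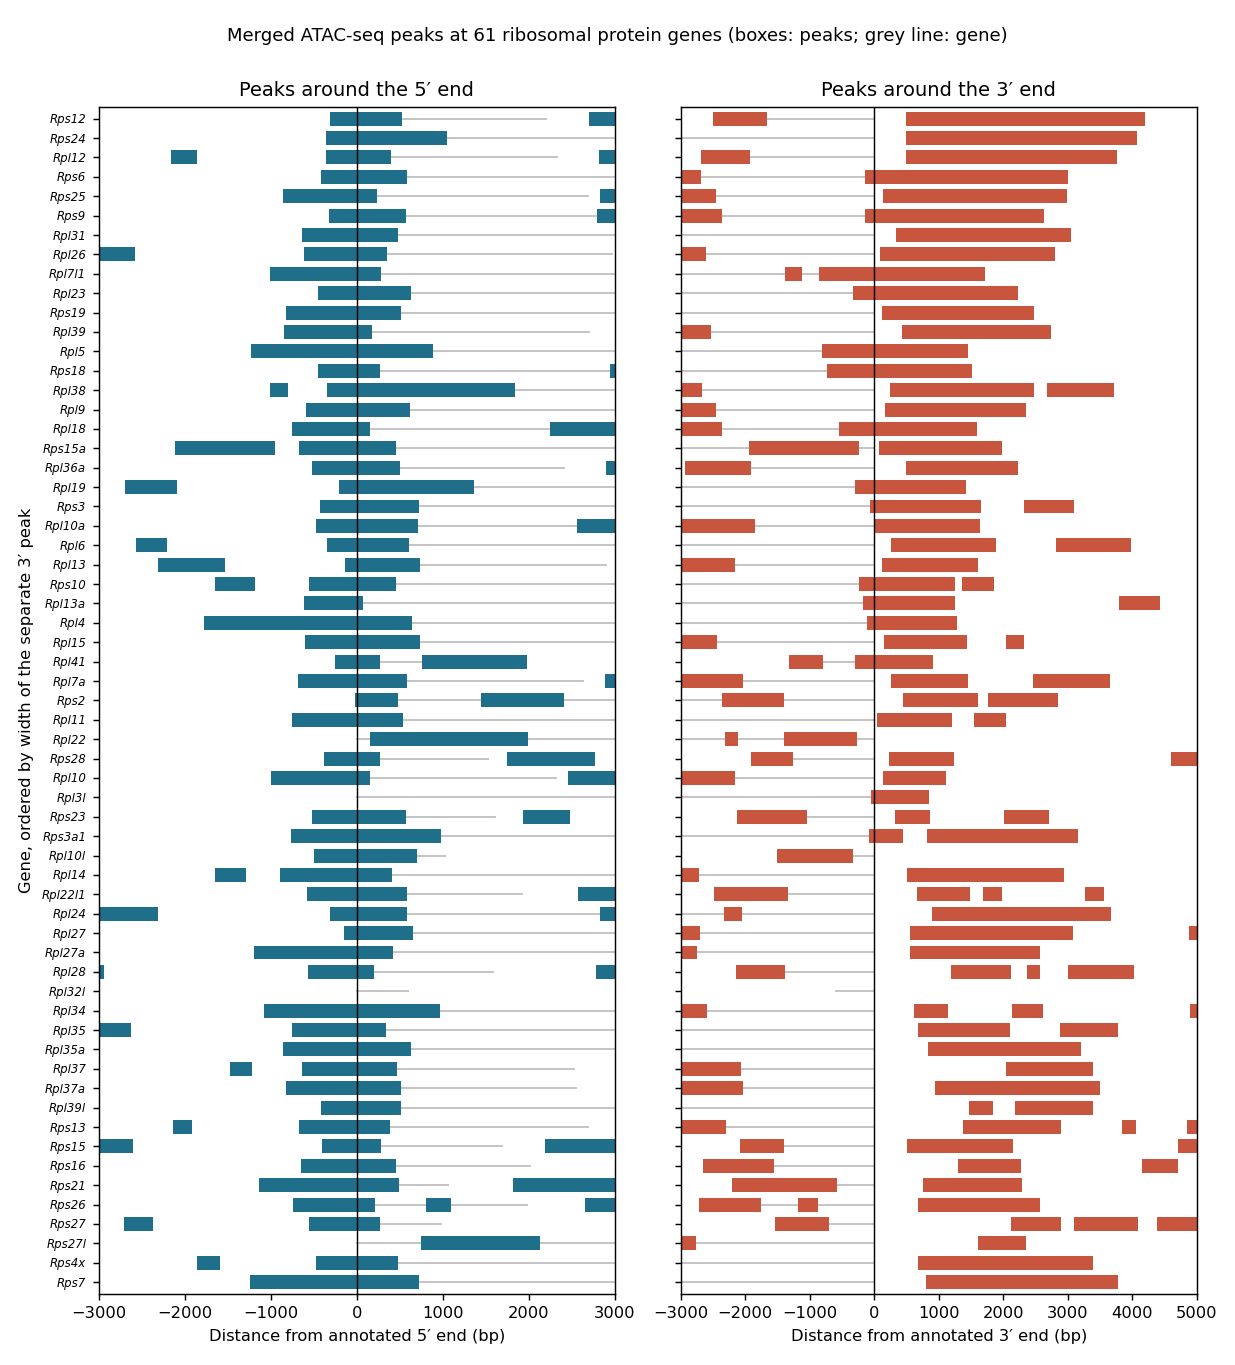
Merged peaks (boxes) around the annotated 5′ and 3′ ends of the 61 ribosomal protein genes with a listed direction, against distance in bp; grey lines are the genes, ordered from the widest separate 3′ peak (Rps12, 3701 bp) down, with the 23 genes lacking one last in symbol order. In most of the last 23 rows a box begins within 2000 bp past the 3′ end, and Rpl10l and Rpl32l have no box there.

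The widest 3′ peaks of the genome included those of several ribosomal protein genes. In all, 1868 genes had a separate 3′ peak that was clear of other gene ends and reached past the annotated end. Ribosomal protein genes were 26 of these 1868 (1.39%) and 12 of the 50 with the widest peak (24.0%). Of those 50 peaks, 21 began inside the gene or at its end, and 29 began past the end, 9 of them at ribosomal protein genes. The widest was at Bzw1 (3709 bp), a translation regulator gene, followed by Rps12, then Hnrnpa3 (3581 bp) of an RNA-binding protein, Rps24, Ddx3x (3380 bp) of an RNA helicase, Rpl12, Rps6 and Ncl (3064 bp), which encodes nucleolin. The genes in this ranking that are not ribosomal protein genes were named after the values were seen.

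Within the set, differences between subgroups were within the counting intervals. The separate 3′ peak was present at 24 of 38 large subunit genes (63.2%, 47.3 to 76.6) and at 14 of 23 small subunit genes (60.9%, 40.8 to 77.8). Genes that hold a small nucleolar RNA gene had it in 14 of 18 cases (77.8%, 54.8 to 91.0) and the others in 24 of 43 (55.8%, 41.1 to 69.6). Median 3′ widths were 1558 and 2025 bp, so the hosts did not have the wider peaks. Genes shorter than 3 kb had it in 14 of 26 cases (53.8%) and longer ones in 24 of 35 (68.6%, 52.0 to 81.4). Over all 80 genes, 28 held 55 of the 1330 annotated small nucleolar RNA genes, and both ends had a peak in 18 of the 28 and in 30 of the other 52.

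For the 19 genes without a listed direction, the ends can be named only by coordinate. Of these, 18 had an end peak and 10 had both. Rpl3, a protein near the peptidyl transferase centre, had 2244 bp at its low-coordinate end and 1403 bp at its high one. Rpl32 had 2037 and 1021 bp, and Rps27a, which encodes ubiquitin fused to a ribosomal protein, 1934 and 1316 bp. In all of these the wider peak lay outside the gene, starting beyond the low end. Rpl30, which can repress the splicing of its own message in yeast, had 1 peak of 1542 bp at its high end.

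The genes with no end peak were Rpl17, Rps27l and Rpl32l. Rpl17 had its nearest peak 680 bp from an end and a peak of 1003 bp within the gene. Rps27l, a p53-responsive paralogue of Rps27, had its nearest peak 747 bp from an end. That peak, of 1385 bp at chr9:66945371-66946755 (GRCm38), covers the nearer to the outermost annotated end of its 2 listed start sites. This start lies 1462 bp inside that end, so a listed start was in a peak although neither end window held one. Rpl32l had no peak within 6376 bp. Of the remaining paralogues, Rpl3l, the striated muscle form of Rpl3, had no 5′ peak and its 911 bp peak at the 3′ end was within 100 bp of another gene's end. Rpl7l1 had 1291 bp at the start and 2571 bp at the 3′ end, also at another gene's end. Rpl22l1 and Rpl39l had 5′ peaks of 1162 and 936 bp and first peaks 662 and 1470 bp past their ends. Peaks at both ends were thus found in 2 of 7 paralogues (28.6%, 8.22 to 64.1) and 46 of the other 73 genes (63.0%, 51.5 to 73.2).

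The widest end peak of each gene had a median of 1513 bp over the 77 genes with one (quartiles 1144 and 2135, range 678 to 3701), against 1326 bp over all protein-coding genes. It exceeded 2000 bp in 23 of the 77 (29.9%), against 11.8% of all protein-coding genes with an end peak. Among the narrowest were those at Rpl8 (678 bp), Rps15 (690 bp), Rpl28 (772 bp) and Rpl27 (802 bp). These widths leave out peaks that began beyond the 500 bp window. Past the 3′ end such peaks ran from 508 to 2153 bp at Rps15 and from 560 to 3086 bp at Rpl27. At Rpl28 the first ran from 1197 to 2113 bp, and Rpl8 has no listed direction. Rps26, another Diamond-Blackfan anaemia gene, had 952 bp and Rps16 1103 bp, each at the 5′ end. Rps26 had its first downstream peak at 673 bp and Rps16 at 1298 bp past the end.

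Inside the genes there were few peaks. A body peak, with its midpoint over 500 bp from both ends, was present in 14 of 80 genes (17.5%), against 65.5% of all protein-coding genes and 38.1% of those 1000 to 12000 bp long. Median gene length was 3169.5 bp in ribosomal protein genes, 17219 bp in all protein-coding genes and 5337.5 bp in the 1000 to 12000 bp band. A longer gene has more room for a body peak, and these shares were not adjusted for length. The median number of body peaks per ribosomal protein gene was 0. Rpl22 had 3, and Rpl19, Rps15a and Rps20 had 2 each. At Rpl22 2 of the 3, and at Rpl19 and Rps15a 1 of the 2, also reached into an end window, so these counts overlap the end peaks. The other 10 genes had 1 body peak each, and that of Rpl38 was its 5′ end peak. At Rpl18, Rpl19, Rpl22, Rpl38, Rps2 and Rps27l a body peak covered a listed start site, which lay inside the outermost annotated end.

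The start-site sequences are shown for genes at the extremes of these results. Each runs 5′ to 3′ from 60 bases before to 25 bases from the listed start, so the start is base 61 of 85, and comes from RefSeq, GRCm38.p6. Capitals mark a C followed by at least 4 pyrimidines, counted from the qualifying C nearest the start and within 5 bases of it. Pyrimidines directly before that C belong to the same stretch but are left in small letters and not counted. Capitals also mark any CCGGAAG (the ETS-type motif) or TCTCGCG (a motif of CpG-rich promoters) on either strand. Where such motifs adjoin or overlap, the capitals form 1 run. The first 3 are genes with wide 3′ peaks and the next 3 are fixed examples.
Rps6: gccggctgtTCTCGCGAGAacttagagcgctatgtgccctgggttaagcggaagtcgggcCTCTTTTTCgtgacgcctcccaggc
Rps24: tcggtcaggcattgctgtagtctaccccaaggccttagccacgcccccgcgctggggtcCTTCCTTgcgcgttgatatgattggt
Rps12: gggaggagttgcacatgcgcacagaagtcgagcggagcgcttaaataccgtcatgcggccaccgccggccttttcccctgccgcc
Rpl38: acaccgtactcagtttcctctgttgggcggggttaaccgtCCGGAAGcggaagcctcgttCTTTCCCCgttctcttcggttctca
Rpl7a: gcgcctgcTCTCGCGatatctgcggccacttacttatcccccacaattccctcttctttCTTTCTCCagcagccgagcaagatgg
Rps19: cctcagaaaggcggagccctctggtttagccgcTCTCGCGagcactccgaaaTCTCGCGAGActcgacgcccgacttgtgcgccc
These windows lie at chr4:86857343-86857427 (minus strand), chr14:24490618-24490702 (plus strand), chr10:23787185-23787269 (minus strand), chr11:114668520-114668604 (plus strand), chr2:26910747-26910831 (plus strand) and chr7:24884532-24884616 (plus strand). In Rps6 the run of 9 bases begins exactly at the listed start, and a TCTCGCG with its overlapping reverse complement stands upstream. Rpl38 has a run of 8 at the start and a CCGGAAG upstream of it. Rpl7a has a run of 8 counted from 1 base before the start, and Rps24 a run of 7 counted from the same place. In both, further pyrimidines stand directly before the counted run. Rps12 and Rps19 have no run by this rule, and Rps19 has TCTCGCG more than once. The listed start of Rps12 lies 174 bp inside its outermost annotated end and that of Rpl38 762 bp inside.

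The next 4 windows belong to Rps16, a fixed example with no separate 3′ peak, and to paralogues that departed from the common pattern.
Rps16: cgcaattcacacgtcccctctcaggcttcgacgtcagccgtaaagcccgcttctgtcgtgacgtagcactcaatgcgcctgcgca
Rps27l: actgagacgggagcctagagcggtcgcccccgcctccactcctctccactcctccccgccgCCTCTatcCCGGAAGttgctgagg
Rpl10l: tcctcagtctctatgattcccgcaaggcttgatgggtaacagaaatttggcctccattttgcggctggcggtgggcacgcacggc
Rpl32l: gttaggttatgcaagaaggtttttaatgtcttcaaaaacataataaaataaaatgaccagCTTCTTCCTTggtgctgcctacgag
They lie at chr7:28350629-28350713 (plus strand), chr9:66946026-66946110 (plus strand), chr12:66284377-66284461 (minus strand) and chr10:20208379-20208463 (plus strand). Rps27l has a short run of 5 beginning 1 base after the start, and CCGGAAG downstream. Rpl32l has a run of 10 at the start and its 300 bases of promoter sequence are 34.7% G or C. Rpl10l and Rps16 have none of the marked features in the windows shown.

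Over the 61 genes with sequence, the run within 5 bases of the start was present in 28 (45.9%, 34.0 to 58.3), against 18.8% of the 17492 protein-coding genes. With its C exactly at the start, whatever base came before, it was present in 12 (19.7%, 11.6 to 31.3), against 2.17%. It was present there in 0 of 69 mitochondrial ribosomal protein genes. In the 300 bases from 250 before to 50 after the start, both strands searched, CCGGAAG was found in 23 of 61 (37.7%) against 11.9% of all, and in 24 of 69 mitochondrial ribosomal protein genes (34.8%). TCTCGCG was found in 13 of 61 (21.3%) against 3.65%, and in 4 of 69 (5.80%). GCCATNT, the YY1-type motif, was found in 18 (29.5%) against 14.5%, and in 24 of 69 mitochondrial ribosomal protein genes (34.8%). TATAA was found in 18 (29.5%) against 22.8%, GCATGCG, the NRF1-type motif, in 3 (4.92%) against 4.50%, and CTTTC in 47 (77.0%) against 54.9%. The median number of CpG was 21, the same as in mitochondrial ribosomal protein genes, against 13 over all genes, while the median G and C content was 56.7% against 56.3%. A match is a description of the letters and not a bound site.

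Genes with and without these start-site features had separate 3′ peaks in shares whose intervals overlapped. The peak was present in 17 of 28 genes with a pyrimidine run near the start (60.7%, 42.4 to 76.4) and in 21 of 33 without (63.6%, 46.6 to 77.8). It was present in 20 of 30 genes with CCGGAAG or TCTCGCG (66.7%, 48.8 to 80.8) and in 18 of 31 with neither (58.1%, 40.8 to 73.6).

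Ribosomal protein pseudogenes, 301 of the 318 named for one of the 80 genes, were mostly without a peak. A peak lay at either end of 78 of 318 ribosomal protein pseudogenes (24.5%, 20.1 to 29.5), against 20.1% of the 10329 annotated pseudogenes and 96.3% of the ribosomal protein genes. In 49 of the 78, 1 peak reached into the windows of both ends. The median pseudogene is 531 bp long, so the windows of its ends overlap. A peak overlapped the pseudogene itself in 56 of 318 (17.6%), against 79 of 80 ribosomal protein genes. Reads from near-identical copies are hard to place, and the sources used here do not say how such reads were handled, so a missing peak at a pseudogene is uncertain.

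The pseudogene peaks were narrow, as the plot of widest end peaks shows. Their median was 502 bp (209 to 2737), and 9 of 78 reached 1000 bp, against 66 of 77 ribosomal protein genes. None of the ribosomal protein genes had a widest end peak below the pseudogene median. The widest were at Rpl30-ps6 (2737 bp), Rps19-ps9 (1909 bp), Rps18-ps3 (1535 bp), Rpl36-ps8 (1468 bp), Rpl19-ps6 (1373 bp) and Rps19-ps5 (1286 bp). Position near other genes went with a higher share: 15 of 40 pseudogenes within 2000 bp of another gene's end had a peak (37.5%, 24.2 to 53.0), against 63 of 278 farther away (22.7%, 18.1 to 27.9). Those intervals overlap.

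**Figure D5:**
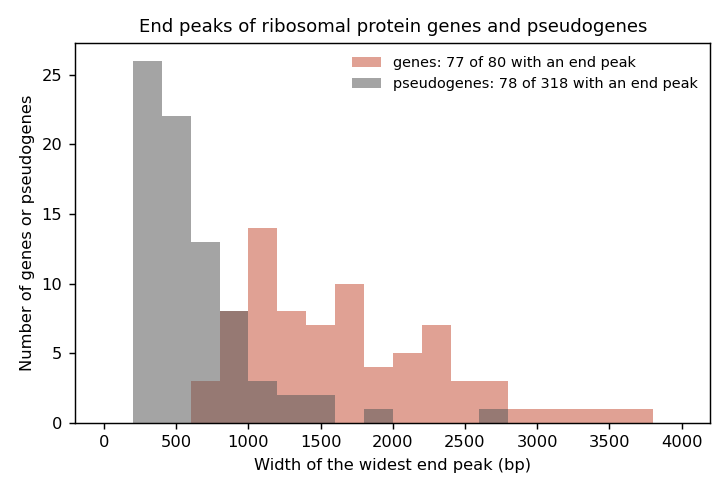
Number of ribosomal protein genes and pseudogenes (vertical) by the width of their widest end peak (bp, horizontal, bins of 200 bp). The 78 pseudogenes lie mostly below 1000 bp (median 502), and the 77 genes mostly above it (median 1513).

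Families of pseudogenes, grouped by parent symbol, differed in how many had a peak. Among families of at least 10, the highest shares were in copies of Rpl36 (7 of 10) and Rps2 (8 of 12), followed by Rps19 (6 of 13) and Rpl19 (5 of 12). The lowest were in copies of Rpl23a (0 of 13), Rpl17 (1 of 11), Rpl21 (2 of 15) and Rpl7a (2 of 14). The largest families, copies of Rpl31 and Rps12 with 23 each, had 4 and 5 with a peak. Members of a family share sequence, so they are not independent, and the families were named after their counts were seen.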

How the data were processed

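The deposited file held positions only: chromosome, start, end and a name for each peak, merged by the authors. It is labelled as all but names no library, so that all 18 libraries went in is assumed. Per the submitters' processing notes, tools were MACS2 2.2.7.1, Bowtie2 2.4.2 and Trimmomatic 0.36, with the builds GRCm38 and mm10 listed. The merging rule, peak threshold and treatment of duplicates and multiply mapping reads are not given in the sources used here. A looser threshold or a union over libraries would widen peaks and add them.

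Peak starts were made 1-based. Gene positions and start-site sequences came from RefSeq GRCm38.p6. Of 49997 listed genes, 49595 on assembled chromosomes were kept. The rows dropped included 348 labelled with such a chromosome but holding scaffold coordinates. A gene end had a peak where at least 1 bp of a peak lay within 500 bp. Scoring used Python 3.11.15, numpy 2.4.6 and pandas 2.3.3, and was tested on simulated peaks, where all 21774 genes matched an exhaustive search. The planned tests over libraries were not run, since the list has no value per library, and 0 columns of per-sample values were unused.

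Genes were named by rule: those with no end peak, paralogues, the 5 widest and 5 narrowest, those with most body peaks, the widest 6 pseudogenes and a list of examples. Values of a few genes covered by these rules are not reported here. Other genes were named for their values after these were seen. The members and lists were chosen with earlier results of these data known, and the 3′ measures after the positions were seen.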

Additional observations from a re-analysis of the deposited data

How the results depend on the processing

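No paired analysis was possible because the merged list holds no values per library, and leaving out a repeat could not be run for the same reason. Over windows of 250, 1000 and 2000 bp, peaks at both ends of ribosomal protein genes were found in 38.8%, 87.5% and 96.3%, and with an overlap of at least 200 bp in 43.8%. The either-end share was 98.8% with 1000 and 2000 bp, and the median widest end peak was 1741 bp with both. Pseudogenes had an end peak in 29.9% with 1000 bp, 40.9% with 2000 bp and 9.43% when only peaks above the 578 bp median were kept. All protein-coding genes had one in 68.8%, 75.2% and 79.7% over the 3 windows, 69.4% with the larger overlap and 66.7% with wide peaks only.

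The remaining alternatives were chosen after seeing the data. Separate 3′ peaks were found at 42.6%, 83.6% and 86.9% of ribosomal protein genes over the 3 windows, against 13.5%, 29.6% and 43.2% of all genes with direction. With the larger overlap the shares were 49.2% and 15.1%. With wide peaks only, all genes fell to 13.4%, and to 15.9% where no other gene end lay within 5 kb downstream. For the measure within 2000 bp past the 3′ end, all genes were at 22.1% with wide peaks and 25.6% with no neighbouring end. Over all results, planned or added, the other 22 alternatives stayed within the interval of the reported value. The share of ribosomal protein genes was above that of all protein-coding genes with every window, overlap and peak set tried, for either end and for the 3′ measures. Depth is unknown, so a missing peak is not shown to be closed chromatin.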
